A study of Mus musculus with 4 samples.

Results

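Cytokinesis is the last step of cell division, in which a ring of actin and myosin pinches the cell in 2 after the chromosomes have parted. The ring forms where the small GTPase RhoA is switched on beneath the middle of the spindle, and a thin bridge with a midbody then joins the daughter cells until it is cut. A cell that fails at this step keeps both chromosome sets, and this is one known route from a lower to a higher ploidy. The genes described here are 7 regulators of cytokinesis: Ect2, Anln, Racgap1, Prc1, Cit, Rhoa and Diaph3. They were chosen by name as genes of this process and were found on the arrays by matching each probe's accession to a table of RefSeq genes (GRCm38.p6), which gave 9 probes, 2 each for Racgap1 and Rhoa and 1 for each of the other genes, out of 39409 probes and 19748 symbols in all.

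All samples were parthenogenetic embryonic stem cells (ESCs) of female mice, that is, cells grown from an unfertilised egg, so that each held only maternal chromosomes. There were 2 haploid ESC samples and 2 diploid ESC samples, each pair numbered 1 and 2, and the series' title places them in a study of the G2/M transition. Haploid ESC cultures are known to drift towards diploidy, and the labels give neither the share of diploid cells in the haploid samples nor whether the diploid lines came from the haploid ones. Every sample had an Agilent array of its own, read in 1 colour, and all 4 arrays shared 1 slide.

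On each of the 4 arrays all 9 probes stood well above background, and none was saturated. Levels are given as the log2 of a probe's signal minus the array's 75th percentile, which was 526 and 553 intensity units on the haploid arrays and 617 and 907 on the diploid arrays. They are therefore relative to the rest of the array and say nothing of the amount of RNA per cell. Probes differ in how well they bind, so levels were compared between samples and not between genes. Levels of 10 ESC markers were read, and all 10 stood well above background on each array. So did 10 of 11 measured fibroblast markers and all 5 measured trophectoderm markers, so this mark does not tell cell types apart. Pou5f1, a core pluripotency factor, had levels of 3.38 and 3.33 in haploid ESCs, against 3.26 and 3.51 in diploid ESCs, and Sox2, its partner, had 2.26 and 2.08 in haploid ESCs, against 2.04 and 2.13 in diploid ESCs. Of the ESC markers with the smallest p, Tdgf1 differed by -0.51 ± 0.19, Nanog by -0.37 ± 0.17, Zfp42 by 0.33 ± 0.16 and Dppa5a by 0.35 ± 0.21, haploid minus diploid on the log2 scale. None of the 10 ESC markers passed the test described next.

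None of the 7 genes passed the test of haploid against diploid ESCs. In a limma fit over 17963 features (2 arrays per group), 0 of the 7 passed an adjusted p of 0.05 and 0 had an unadjusted p under 0.05, while 0.111% of all features were called and 11.7% had an unadjusted p under 0.05. Differences, haploid minus diploid on the log2 scale, ran from -0.32 for Cit to 0.28 for Diaph3, with 4 genes below 0, 3 above it and a median of -0.13. Over all features the median difference was 0.02, and 53.2% lay above 0. In this fit the 95% intervals of the 7 differences, not adjusted for the number of genes, ran from 0.593-fold at the lowest to 1.63-fold at the highest. They concern the cultures as sampled, since the share of diploid cells in the haploid samples is not known. A 2-fold change in either direction lay outside the interval of each of the 7 genes in this fit. With normexp background correction on all spots, the interval of each of the 7 held a 2-fold increase, a 2-fold decrease or both. There the intervals ran from 0.233-fold to 3.57-fold.

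**Figure D1:**
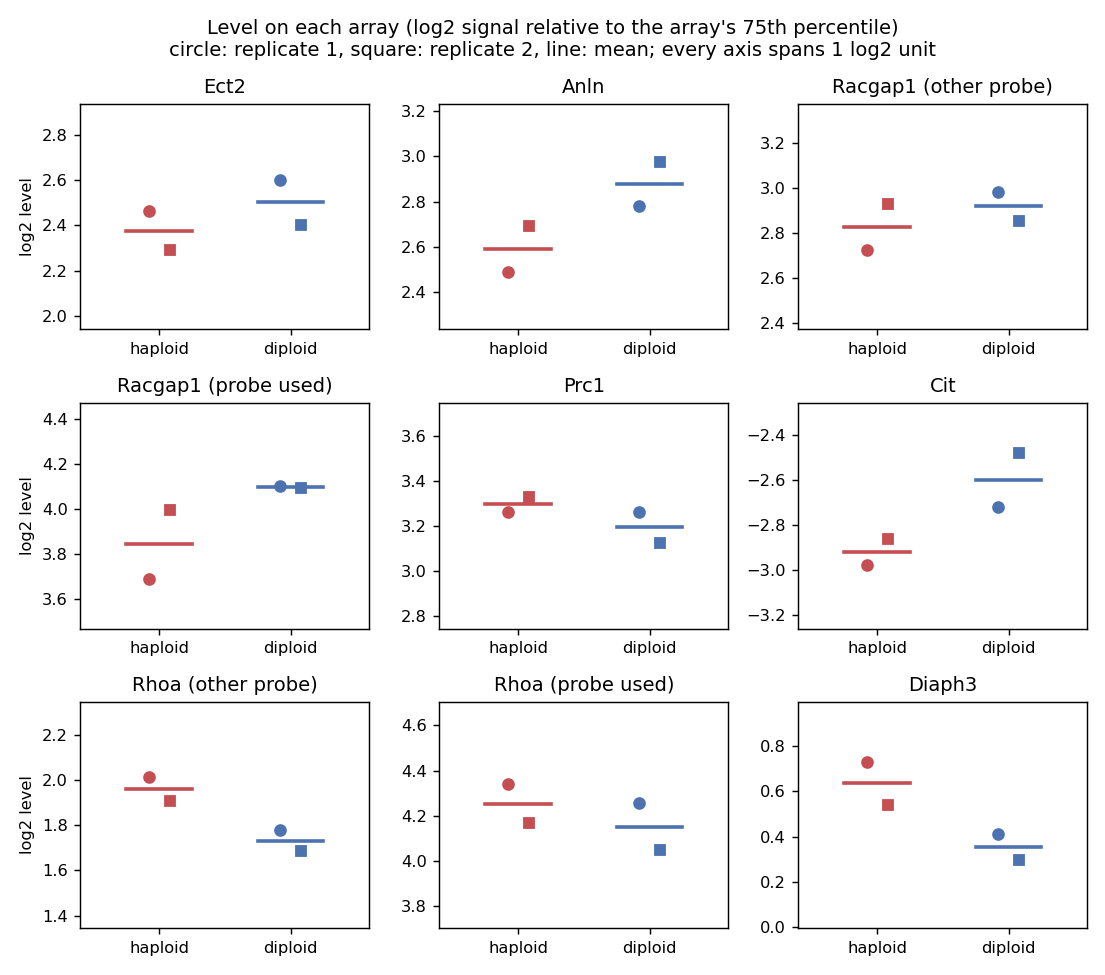
Level of each of the 9 probes on each array (vertical axis, log2 signal relative to the array's 75th percentile), with haploid ESCs in red on the left and diploid ESCs in blue on the right, replicate 1 as a circle, replicate 2 as a square and the group mean as a line. Anln and Cit sit lower in both haploid samples and Diaph3 sits higher, while Ect2 and Prc1 overlap between the groups.

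The account starts upstream, with the proteins that switch RhoA on. Ect2, the exchange factor that loads RhoA with GTP at the cell equator, had levels of 2.46 and 2.29 in haploid ESCs, against 2.60 and 2.40 in diploid ESCs. The groups overlapped, since haploid replicate 1 lay above diploid replicate 2. The difference was -0.13 ± 0.18 (SE, n = 2 per group, limma adjusted p = 0.796), with a 95% interval of 0.678-fold to 1.24-fold. Racgap1 is the GTPase-activating subunit of centralspindlin, the complex that gathers at the spindle midzone and brings in Ect2. Its brighter probe read 3.69 and 3.997 in haploid ESCs, against 4.10 and 4.09 in diploid ESCs. Both haploid values were the lower ones, but the haploid replicates lay 0.31 apart, more than the difference between the groups of -0.25 ± 0.19 (adjusted p = 0.607). The second Racgap1 probe, made to the same transcript, read 2.73 and 2.93 in haploid ESCs, against 2.98 and 2.85 in diploid ESCs, and there the groups overlapped (-0.09 ± 0.18, adjusted p = 0.863 in the fit over all 21784 probes, of which 0.161% were called).

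Rhoa encodes the GTPase itself, which drives both actin assembly and myosin contraction at the ring. Its brighter probe read 4.34 and 4.17 in haploid ESCs, against 4.26 and 4.05 in diploid ESCs. The groups overlapped, and the difference of 0.10 ± 0.18 (limma adjusted p = 0.838) was smaller than the gap between the haploid replicates (0.17) and between the diploid replicates (0.21). The second Rhoa probe read 2.01 and 1.91 in haploid ESCs, against 1.78 and 1.69 in diploid ESCs, so both haploid values were higher, by 0.23 ± 0.17 (adjusted p = 0.625 over all probes). The direction for Rhoa depended on the scaling: the brighter probe's difference was -0.024 with quantile normalization, -0.017 with cyclic loess and -0.020 with the deposited value table, and it was -0.0036 without diploid replicate 2.

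Downstream of RhoA, the scaffold and the actin nucleator had differences of opposite sign, and neither passed the test. Anln encodes anillin, which ties RhoA, actin, myosin and septins together at the ring. It read 2.49 and 2.69 in haploid ESCs, against 2.78 and 2.98 in diploid ESCs, with both haploid values below both diploid ones. The difference was -0.29 ± 0.18 (limma adjusted p = 0.559), a fold of 0.818 with a 95% interval of 0.603 to 1.11. Diaph3, a formin of the mDia family that RhoA activates to build unbranched actin filaments, had levels of 0.73 and 0.54 in haploid ESCs, against 0.41 and 0.30 in diploid ESCs. Here both haploid values were above both diploid ones, by 0.28 ± 0.18 (adjusted p = 0.558), a fold of 1.21 with a 95% interval of 0.905 to 1.63.

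The remaining genes act at the midzone and the midbody. Prc1, which bundles the antiparallel microtubules of the central spindle, read 3.26 and 3.33 in haploid ESCs, against 3.26 and 3.13 in diploid ESCs. The groups overlapped and differed by 0.10 ± 0.17 (limma adjusted p = 0.830, 95% interval 0.807-fold to 1.42-fold). Cit encodes citron kinase, a RhoA-binding protein that keeps the midbody in order before the bridge is cut. Its signal before scaling was low, at 66.9 and 76.1 intensity units in haploid ESCs, against 93.5 and 163 in diploid ESCs. After scaling it read -2.98 and -2.86 in haploid ESCs, against -2.72 and -2.48 in diploid ESCs. Both haploid values were lower, and the difference was -0.32 ± 0.18 (adjusted p = 0.526), a fold of 0.803 with a 95% interval of 0.593 to 1.09. The Cit spot was among the 1% with the highest local background on at least 1 array.

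**Figure D2:**
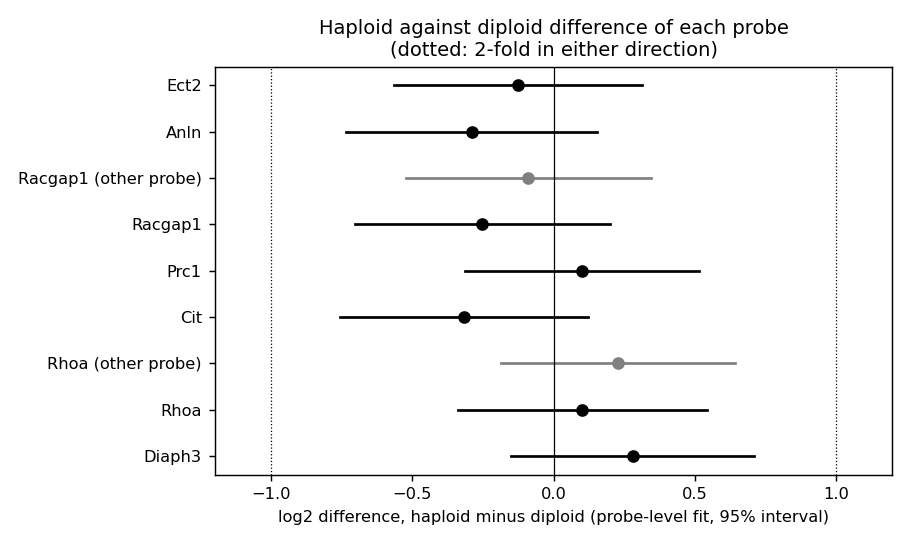
Haploid minus diploid difference of each of the 9 probes (horizontal axis, log2) with its 95% interval from the limma fit over all probes, black for the probe that stands for its gene and grey for the second probe of Racgap1 and Rhoa. Every interval crosses 0 and lies between the dotted lines that mark 2-fold in either direction.

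Read together, Anln, Racgap1 and Cit had both haploid values below both diploid values and Diaph3 had both above. Among all features, 20.9% had both haploid values below and 26% had both above, so that 47% did not overlap between the groups, and 4 of 7 is close to that background. For Anln, Cit and Diaph3 the difference exceeded the gap between replicates in both groups, which was true of 30% of all features. The order of the differences ran from Cit (-0.32) through Anln (-0.29), Racgap1 (-0.25), Ect2 (-0.13), Prc1 (0.10) and Rhoa (0.10) to Diaph3 (0.28). This order is a description only, because the standard errors were 0.17 to 0.19 and every 95% interval crossed 0. Differences also moved with brightness over the whole array, from a median of -0.17 in the dimmest of 10 classes to 0.22 in the brightest. Prc1 and Rhoa lay in the second brightest class, whose median of 0.09 was close to their own differences, while Racgap1 lay in the same class. Ect2 and Anln lay in a class with a median of 0.04, Diaph3 in one with a median of -0.02 and Cit in one with a median of -0.03.

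The 7 genes did not share 1 direction, with 4 differences below 0 and 3 above it. Centred on each gene's own mean, their average profile was -0.05 and -0.02 in haploid ESCs, against 0.05 and 0.02 in diploid ESCs. The features with a symbol nearest to that average profile, by root mean square distance over the 4 arrays among 12358 candidates, were Ap2b1 (0.0030), Trappc3 (0.0064) and Emg1 (0.0077). Their own differences were -0.07 for Ap2b1, -0.07 for Trappc3 and -0.06 for Emg1. The distances of the 7 genes from their average profile ran from 0.094 for Ect2 to 0.193 for Diaph3. The named features were picked as the nearest of all candidates, so their smaller distances say nothing about how alike the 7 genes are.

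Many genes of late cell cycle carry a short promoter element, the cell cycle genes homology region, often with CCAAT boxes upstream of it, through which they are held silent early in the cycle and switched on in G2 and mitosis. The promoter windows of RefSeq (GRCm38.p6, 250 bases before to 50 after a start, both strands searched) were therefore searched for the letters TTTGAA and CCAAT. All 7 genes had a window. TTTGAA occurred in those of 4 genes, Ect2, Anln, Racgap1 and Prc1, and in those of 20.2% of 27025 genes. CCAAT occurred in those of Ect2, Racgap1, Prc1 and Diaph3, and in those of 41.1% of all genes. The stretches below are shown so that the element common to the first 4 can be seen; each runs from 120 bases before to 30 bases after the first listed start, with TTTGAA, or TTCAAA where it lies on the other strand, in capitals.
Ect2, chr3:27153849-27153998, minus strand: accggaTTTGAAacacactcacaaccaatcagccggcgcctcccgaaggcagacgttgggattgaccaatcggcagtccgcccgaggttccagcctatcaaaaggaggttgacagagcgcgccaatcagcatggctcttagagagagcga
Anln, chr9:22389177-22389326, minus strand: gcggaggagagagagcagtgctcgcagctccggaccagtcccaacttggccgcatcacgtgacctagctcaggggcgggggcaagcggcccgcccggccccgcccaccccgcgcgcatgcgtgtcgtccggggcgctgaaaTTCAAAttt
Racgap1, chr15:99651627-99651776, minus strand: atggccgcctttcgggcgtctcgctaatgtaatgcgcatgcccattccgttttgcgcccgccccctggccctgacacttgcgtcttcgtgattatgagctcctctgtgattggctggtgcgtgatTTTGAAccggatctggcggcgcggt
Prc1, chr7:80294331-80294480, plus strand: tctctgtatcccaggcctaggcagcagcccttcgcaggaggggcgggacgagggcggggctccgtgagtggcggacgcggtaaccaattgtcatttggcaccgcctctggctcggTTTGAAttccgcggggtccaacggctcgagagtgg
In the full windows of these starts the letters began at positions -114 and 40 from the start for Ect2, at -5 for Prc1, at 6 for Racgap1 and at 22 and 29 for Anln, where negative positions lie before the start. The matches at 40 in Ect2 and at 29 in Anln run past the printed stretches. CCAAT began at -96, -55 and 2 in the window of Ect2, so that the match at -114 lies before all 3 of them and the match at 40 after them. The 4 genes that hold them did not move as a block, since Ect2, Anln and Racgap1 had differences of -0.13, -0.29 and -0.25 and Prc1 one of 0.10. A match of letters is a description and shows no binding.

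The partners of these genes were taken from 5 further lists of the same process, and no gene of any of them passed the adjusted test. The kinesins of the central spindle were the group with the most even direction: all 4 measured members had both haploid values below both diploid values, with a median difference of -0.27, against 20.9% of all features with both haploid values below. Kif23, the motor subunit of centralspindlin and the partner of Racgap1, read 0.14 and 0.41 in haploid ESCs, against 0.73 and 0.86 in diploid ESCs (-0.52 ± 0.18, limma adjusted p = 0.361). Kif20b, a kinesin needed for late abscission, differed by -0.33 ± 0.17, Kif4, which carries PRC1 along microtubules, by -0.22 ± 0.18, and Kif20a, which brings PLK1 and the passenger complex to the midzone, by -0.15 ± 0.17 (adjusted p from 0.361 to 0.733). Kif14 was not among the named probes. The chromosomal passenger complex, whose kinase Aurora B regulates midzone assembly and abscission, had 3 measured members with a median of 0.13. Birc5 (survivin) differed by 0.28 ± 0.22 and by -0.04 at its lowest probe, Incenp by 0.13 ± 0.17 and Cdca8 (borealin) by -0.05 ± 0.17, while on none of the arrays did the Aurkb probe stand well above background.

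**Figure D3:**
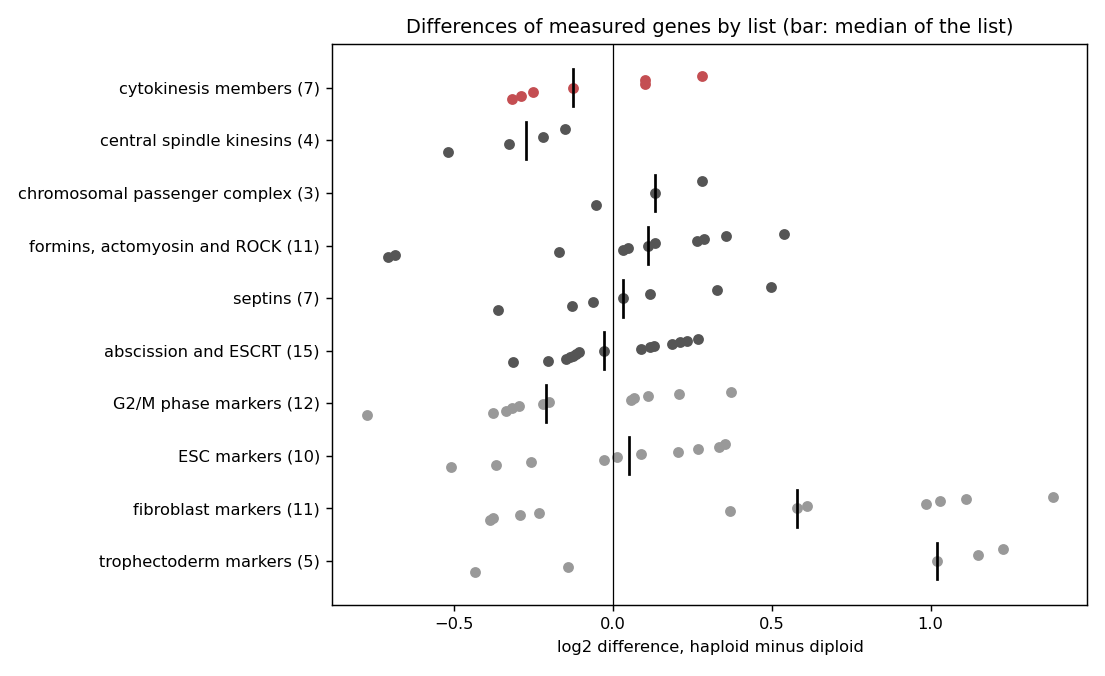
Haploid minus diploid difference (horizontal axis, log2) of each measured gene, by list, with the number measured in brackets and the median as a bar; the 7 cytokinesis regulators are in red, their partners in dark grey and the G2/M and cell type markers in light grey. The 7 regulators lie between -0.32 and 0.28, inside the span of the formin and septin lists and of the fibroblast and trophectoderm markers.

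Among formins, actomyosin genes and the ROCK kinases that act under RhoA, 8 of 11 measured members lay above 0 and 3 below it, with a median of 0.11. The 2 kinases were among the lower ones. Rock1, which phosphorylates myosin light chain, read -2.54 and -2.45 in haploid ESCs, against -2.05 and -1.57 in diploid ESCs (-0.68 ± 0.21, limma adjusted p = 0.311, other probe -0.35). Rock2 read -3.47 and -4.34 in haploid ESCs, against -3.21 and -3.19 in diploid ESCs (-0.71 ± 0.30, limma adjusted p = 0.433, other probe -0.67). The haploid replicates of Rock2 lay further apart than its group means. Myosin genes lay on the other side. Myh9, the non-muscle myosin IIA heavy chain, read 4.04 and 4.11 in haploid ESCs, against 3.64 and 3.44 in diploid ESCs (0.54 ± 0.17, adjusted p = 0.320), and Myl12a, a myosin light chain, differed by 0.36 ± 0.17. Diaph1 and Diaph2, the formins related to Diaph3, differed by -0.17 ± 0.17 and 0.03 ± 0.18.

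The septins, filament-forming GTPases that anillin binds at the ring, had 4 of 7 measured members above 0 and a median of 0.03, from Septin11 at -0.36 ± 0.21 to Septin8 at 0.50 ± 0.21 (limma adjusted p = 0.429 for Septin8), with Septin6 at 0.33 ± 0.21 and Septin9 at -0.13 ± 0.17 between them. Of the genes that cut the bridge, 7 of 15 lay above 0, with a median of -0.03. Chmp2b, an ESCRT-III subunit, differed by -0.32 ± 0.17, Chmp2a by 0.27 ± 0.22, Chmp4b, the main filament of abscission, by 0.21 ± 0.18 and Chmp3 by 0.19 ± 0.17 (adjusted p from 0.520 to 0.670), although the other probe of Chmp3 stood at -0.77.

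Transcripts of several of these genes peak in G2 and mitosis, so general G2/M markers were read beside them. Of 12 measured, 7 lay below 0, each with both haploid values below both diploid ones, against 20.9% of all features. Ccnb1 and Cdk1 had both haploid values above, against 26% of all features, and the median of the 12 was -0.21. Hmmr, a spindle protein, read 0.47 and 0.81 in haploid ESCs, against 1.21 and 1.61 in diploid ESCs (-0.77 ± 0.22, limma adjusted p = 0.265). Ccna2 (cyclin A2) differed by -0.38 ± 0.17 and Mki67, a proliferation marker, by -0.32 ± 0.17, while Ccnb1 (cyclin B1) differed by 0.37 ± 0.17 with its other probes at -0.19 and -0.13, and Plk1, which docks on PRC1 at the midzone, by -0.22 ± 0.17. None passed the adjusted test. In bulk RNA, fewer cells in G2/M and less RNA per such cell cannot be told apart, and the part of G2/M markers in the differences of Anln, Racgap1 and Cit was not tested.

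Markers of other cell types that the cultures could hold were read as well, since Rhoa and Myh9 are expressed in most cell types. Of 11 measured fibroblast markers 7 lay above 0. The summed linear level of the 11, in multiples of the array's 75th percentile, was 12.8 and 9.93 in haploid ESCs, against 7.96 and 6.09 in diploid ESCs. Col1a2 made the largest part of each sum, with levels of 2.27 and 1.57 in haploid ESCs, against 1.49 and 1.19 in diploid ESCs (0.58 ± 0.27). Col1a1, a collagen I chain, differed by 0.99 ± 0.31, Thbs1 by 1.39 ± 0.26, Fbln5 by 1.03 ± 0.22 and Thy1 by 1.11 ± 0.31 (limma adjusted p from 0.140 to 0.312). The 4 below 0 were Col3a1 (-0.39 ± 0.32), Dcn (-0.38 ± 0.19), Lum (-0.29 ± 0.31) and Twist1 (-0.23 ± 0.18). All 7 above 0 had both haploid values above both diploid ones, against 26% of all features, and Dcn and Twist1 had both below, against 20.9%. Pdgfrb and Prrx1 were not well above background on both arrays of either group. Of 5 measured trophectoderm markers 3 lay above 0, with a summed level of 17.9 and 14.6 in haploid ESCs, against 13.0 and 13.5 in diploid ESCs. The largest part of each sum was Tfap2c, with levels of 3.42 and 2.93 in haploid ESCs, against 3.27 and 3.36 in diploid ESCs. Its groups overlapped, and it differed by -0.14 ± 0.22. Krt18 differed by 1.23 ± 0.17 (limma adjusted p = 0.0781), Krt8 by 1.15 ± 0.23, Gata3 by 1.02 ± 0.19 and Eomes by -0.43 ± 0.17, while the lineage factors Cdx2, Elf5 and Hand1 did not pass the filter on dim probes. Whether such cells were present, and what part they had in the values of the 7 genes, was not tested.

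No other setting called any of the 7 genes. Under 13 other settings of scaling, background correction, filter, variance model or arrays left out, 0 of the 7 passed the adjusted test and 0 had an unadjusted limma p under 0.05, with Cit giving no value in 1 of them. With 1 array left out, Diaph3 ran from 0.18 to 0.38, Cit from -0.44 to -0.20, Anln from -0.39 to -0.19 and Racgap1 from -0.41 to -0.10. Ect2 ran from -0.22 to -0.03, Prc1 from 0.03 to 0.17 and Rhoa from -0.0036 to 0.21. With normexp on all spots the standard errors were 0.49 to 0.58, and Cit stood at -0.81 ± 0.58, Prc1 at 0.54 ± 0.54, Rhoa at 0.57 ± 0.56 and Diaph3 at 0.34 ± 0.49. A missed threshold does not show that levels were equal: on simulated arrays of the same size and spread, the fit recovered 2 of 50 features changed 2-fold and 41 of 50 changed 4-fold.

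**Figure D4:**
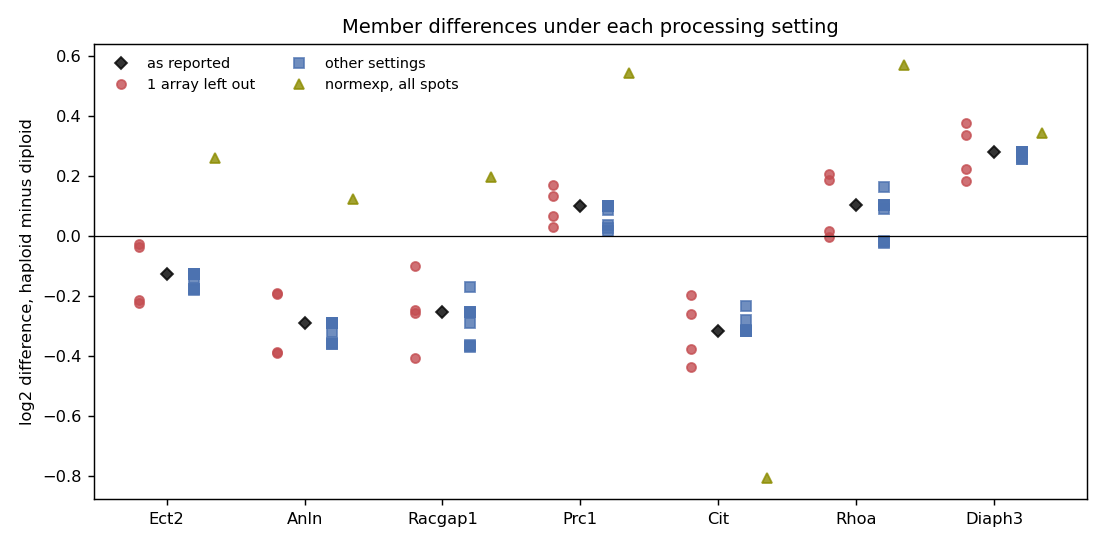
Haploid minus diploid difference (vertical axis, log2) of the 7 genes under each processing setting, with the reported value as a black diamond, values with 1 array left out as red circles, other settings as blue squares and normexp background correction on all spots as olive triangles. Diaph3 and Prc1 stay above 0 throughout. Cit stays below 0 in the 12 other settings that gave it a value. Ect2, Anln and Racgap1 cross 0 only with normexp on all spots, and Rhoa crosses it with 4 settings.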

How the data were processed

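The authors deposited 1 scanner file per array, made with Agilent Feature Extraction 11.0.1.1 (array design build mm9) per the file headers; its processed signal is a background-subtracted intensity on a linear scale. They also deposited a value table of intensity values with no normalization named by any header or label (not given in the sources used here); its column medians were 28.4 and 28.3 for haploid and 28.4 and 28.3 for diploid replicates 1 and 2, and it ranked probes as the scanner signal did (Spearman correlation across probes of 0.999867 to 0.999944).

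From the scanner files, control spots and outlier-marked spots were left out (121 to 168 of 43020 per array), spots of a probe were averaged on the log2 scale, and each array's 75th percentile was subtracted. Accessions named 66.1% of probes. Probes well above background on both arrays of a group were kept, and the probe with the highest mean stood for its gene. Groups were compared with limma 3.58.1 (R 4.3.3, lmFit and eBayes, two-sided, Benjamini-Hochberg over all features). The number of arrays limits the precision. The series' design text calls the samples of a group independent experiments. The p-values rest on the spread between them, which eBayes moderated with the spread of all features (2 residual and 6.25 total degrees of freedom). Equal sample numbers were not taken to mark pairs: such samples' deviations from the group means correlated at 0.05 across features.

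The members and lists were chosen with earlier results of these data known. Besides the 7 members, up to 4 genes per list with the smallest p were named, with fixed checks and the 3 features nearest to the members' mean profile. Plk1, Diaph1, Diaph2, Kif14, Aurkb, Cdk1, Tfap2c, Col1a2, the fibroblast markers below 0 and dim markers were named outside this rule, after their values were seen. 1 further list is not reported here. The fit was tested on simulated data. The planned normexp correction on the mean signal was run on the median signal instead, since the files used here hold no mean signal. Python 3.11.15, pandas 2.3.3, numpy 2.4.6 and matplotlib 3.10.9 were also used.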

Additional observations from a re-analysis of the deposited data

How the results depend on the processing

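Among the 7 genes the count of calls was 0 in every setting tried, with 6 genes measured for normexp when the spots with the highest 1% of local background were left out, which gave no value for Cit. Their median difference, -0.13 as reported, was -0.13 to -0.18 in the planned settings with all arrays. It ran from -0.19 to -0.03 with 1 array left out (-0.03 without diploid replicate 1 and -0.04 without haploid replicate 2), and was -0.03 for the 6 genes under normexp less the spots of highest local background and 0.26 with normexp on all spots. Normexp on all spots was not a planned setting, since the plan named the mean signal and the median signal was used. This setting also turned Ect2 to 0.26, Anln to 0.12 and Racgap1 to 0.20 (the cause was not tested). It moved Cit to -0.81, Prc1 to 0.54 and Rhoa to 0.57. Rhoa turned to -0.024 with quantile normalization, -0.017 with cyclic loess and -0.020 with the value table, and ran from -0.0036 to 0.21 with 1 array left out, the lowest without diploid replicate 2. The limma count over all features, 20 as reported, was 7 with quantile normalization, 4 with the value table, 425 with trend and robust fitting and 131 with normexp less the spots of highest local background. It was 0 with cyclic loess (2286 features at an unadjusted p under 0.05), without a filter (1660) and with normexp on all spots (127), and 0 to 294 with 1 array left out: 226 and 294 without haploid replicate 1 and 2, and 0 without either diploid replicate. Over all probes the count of 35 became 5, 4, 558 and 127 in the first 4 settings and 0 in the next 3, and 0 to 362 with 1 array left out. With the replicate number as a block, which the labels do not show to pair the samples, 2 features and 4 probes were called and none of the 7 genes. Cit had a low signal before scaling, and its spot was among the 1% of highest local background on at least 1 array. The part of either in its difference was not tested.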
